A study of Mus musculus with 4 samples.

Results

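Transcript levels of 44 genes of the DNA damage checkpoint and of DNA repair were compared between the stomachs of *c-Myc* transgenic and WT mice. The 44 genes were taken by name from a table of 46095 gene symbols, as genes with established roles in recombination, the Fanconi anaemia pathway, mismatch repair, excision repair, end joining and checkpoint signalling. All 44 had enough reads to be tested.

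Cells copy their DNA before they divide, and a stalled fork or a broken strand is sensed by the kinases ATM and ATR, which hold the cell cycle through CHK2 and CHK1. The lesion is then repaired by a route that suits it, namely recombination with the sister chromatid, rejoining of the ends, or removal of the damaged base or stretch of strand. c-MYC is a transcription factor that drives cells into division, and many recombination and Fanconi genes are transcribed mainly while DNA is copied. In the stomach the dividing cells are the progenitors of the gland, while parietal and chief cells are mature cells that rarely divide.

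Stomach RNA was sequenced from C57BL/6 mice at 12 weeks of age, with 2 samples per genotype. In *Atp4b-cre; MycOE* mice (*Atp4b-cre; Myc fl/+*), Cre recombinase driven by the *Atp4b* promoter switches on a Cre-dependent *c-Myc* transgene in the parietal cell lineage, so the transgene is not targeted to the other cells of the stomach. The comparison group, called WT, was made up of *Myc fl/fl* littermates, and the study did not limit itself to one sex. The labels number the replicates without saying that each is a separate animal. The WT samples differ in sex-marker genes, given below, and so come from different animals, while for the transgenic pair the spread that enters the p-values may be technical. The design text speaks of triplicates, and 2 samples per genotype were analysed here.

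Every value below rests on a re-sorting of the transgenic columns. As deposited, the mean log2(count + 1) of the 2 genotypes correlated across genes with r = 0.524. When the names were put in character-code order (capitals first) and the counts of both transgenic columns were laid on them from top to bottom, r rose to 0.985. Genes are not independent replicates, and no source used here states that the columns were shifted. The re-sorting moved the transgenic counts of 43 of the 44 genes, all except *Ercc1*. In a window of 60 neighbouring genes around each of the 44, r between the genotypes lay between 0.773 and 0.988, with a median of 0.980. It was under 0.9 in 2 windows, those of *Chek1* and *Chek2*. For 44 of 44 windows r was higher in place than at any shift of up to 5 rows. In the deposited order 9 of the 44 genes had at most 3 counts in both transgenic samples, 13 were called higher and 21 lower, and of the 8 genes called after re-sorting, 2 were called in the same direction and 5 in the opposite one.

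**Figure D1:**
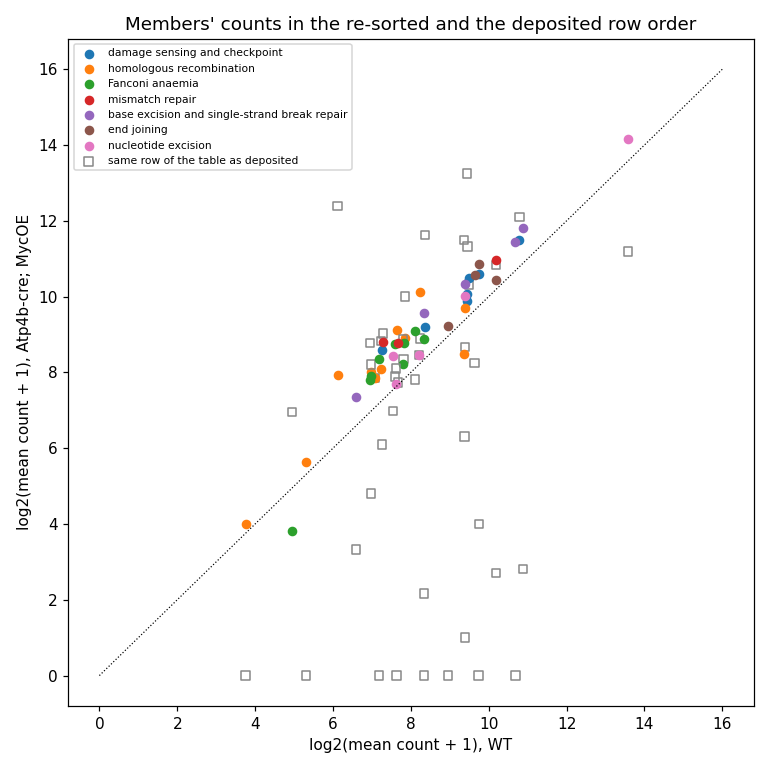
Mean counts of the 44 genes, with log2(mean count + 1) of the 2 WT samples on the x axis and of the 2 *Atp4b-cre; MycOE* samples on the y axis; filled circles are the re-sorted counts, coloured by role, open squares the same genes in the deposited row order, and the dotted line marks equal counts. The circles lie near the line, while the squares scatter widely and 9 of them stand for genes with at most 3 counts in both transgenic samples.

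The samples held 30260305 to 41463647 counts, and a count of 0 would allow up to 3 counts. Replicates were farther apart than counting noise would place them, at a chi-square per degree of freedom over the 44 genes of 4.42 for WT and 9.29 for the transgenic pair. WT replicate 2 stood apart in the sex that *Xist* and *Ddx3y* mark, with 17846 and 5 counts against 85 to 201 and 1861 to 2623 in the other samples. The summed level of 10 parietal cell markers, as TMM-scaled CPM (normalised CPM), was 13227 and 13285 in WT and 884 and 932 in the transgenic samples, and 9 of the 10 were lower. Chief cell markers summed to 83117 and 78850 in WT and to 1110 and 1464 in the transgenic samples over 6 genes. Of these 3 were called lower (5.08% of all genes) and *Lipf* had no counts in any sample. The 6 surface mucous markers were all called lower (5.08% of all genes), with sums of 52744 and 62570 against 12584 and 20131. The 16 proliferation markers, genes of mitosis such as *Mki67* and *Plk1*, summed to 497 and 460 in WT and to 829 and 688 in the transgenic samples. Their median log2 fold change was 0.85, and all 16 lay above WT without overlap (33.3% of all genes). Of these 16, edgeR called 6 higher (5.65% of all genes) and DESeq2 called 13 (5.62% of genes with any count). All 16 were higher at an unadjusted p under 0.05 in edgeR (17.7% of all genes). In whole tissue, fewer cells of a type and less RNA per cell cannot be told apart, and the part that these shifts in cell types and in dividing cells have in the results was not tested.

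Most of the 44 genes lay higher in the *c-Myc* transgenic stomach. The genes called by edgeR, 7 higher and 1 lower, belong to recombination, mismatch repair, single-strand break repair and end joining. DESeq2 also called 2 of 7 checkpoint genes and 3 of 9 Fanconi genes higher, against 5.62% of all genes with any count. The threshold for a call was an adjusted p of 0.05 in edgeR's quasi-likelihood test with Benjamini-Hochberg adjustment over 17643 genes together with a log2 fold change beyond 0.585, which is 1.5-fold. On this rule 7 of the 44 genes (15.9%) rose, against 5.65% of all genes tested, and 1 (2.27%) fell, against 5.08%. The 7 were *Brca1*, *Palb2*, *Rad54l*, *Exo1*, *Xrcc1*, *Xrcc5* and *Xrcc6*, and the 1 that fell was *Blm*. With the adjusted p alone 10 rose and 1 fell, against 6.98% and 5.91% of all genes. At an unadjusted p under 0.05, 22 were higher and 2 lower, against 17.7% and 16.4% of all genes. The log2 fold change was positive in 36 genes and negative in 8. Its median over the 44 was 0.50, with an interquartile range from 0.16 to 0.71, beside a median of 0.01 and an interquartile range from -0.40 to 0.39 over all genes.

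The normalised levels of both transgenic samples lay above both WT samples in 31 of the 44 genes (70.5%), against 33.3% of all genes. They lay below in 3, *Blm*, *Fance* and *Prkdc*, against 31.5% of all genes. In *Prkdc* the gap was small, with 36.8 in WT replicate 2 and 36.3 in transgenic replicate 2 (adjusted p = 0.504 in edgeR). In the other 10 genes the genotypes overlapped. Summed over the 44 genes, the normalised CPM was 1055 and 1058 in WT and 1366 and 1343 in the transgenic samples. The 15 genes best known for transcription in S and G2 phase had a median log2 fold change of 0.70, with 3 higher (5.65% of all genes) and 1 lower (5.08%) in edgeR, and the 29 others had a median of 0.36, with 4 higher and 0 lower. At an unadjusted p under 0.05, where 17.7% of all genes were higher and 16.4% lower, 9 of the 15 were higher and 1 lower, and 13 of the 29 were higher and 1 lower.

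The count of calls rested on few samples. Without WT replicate 1 or WT replicate 2 edgeR called 0 of the 44 and 0 of all genes, with 15 and 14 of the 44 higher at an unadjusted p under 0.05, against 9.89% and 9.97% of all genes. Without transgenic replicate 1 it called 1 of the 44 higher, against 4.2% of all genes, and without transgenic replicate 2 it called 7, against 5.82%. DESeq2 called 15 higher and 1 lower, among them all 8 calls of edgeR, against 5.62% and 6.48% of 26731 genes. The DESeq2 shares given throughout are over these 26731, which are all genes with any count. Many of them were too low for the filter that left 17643 genes in edgeR, and a gene without an adjusted p counted as not called. All 44 passed that filter, so their excess over the DESeq2 shares may be overstated. With library sizes left unscaled edgeR called 18 higher, against 12.9% of all genes.

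**Figure D2:**
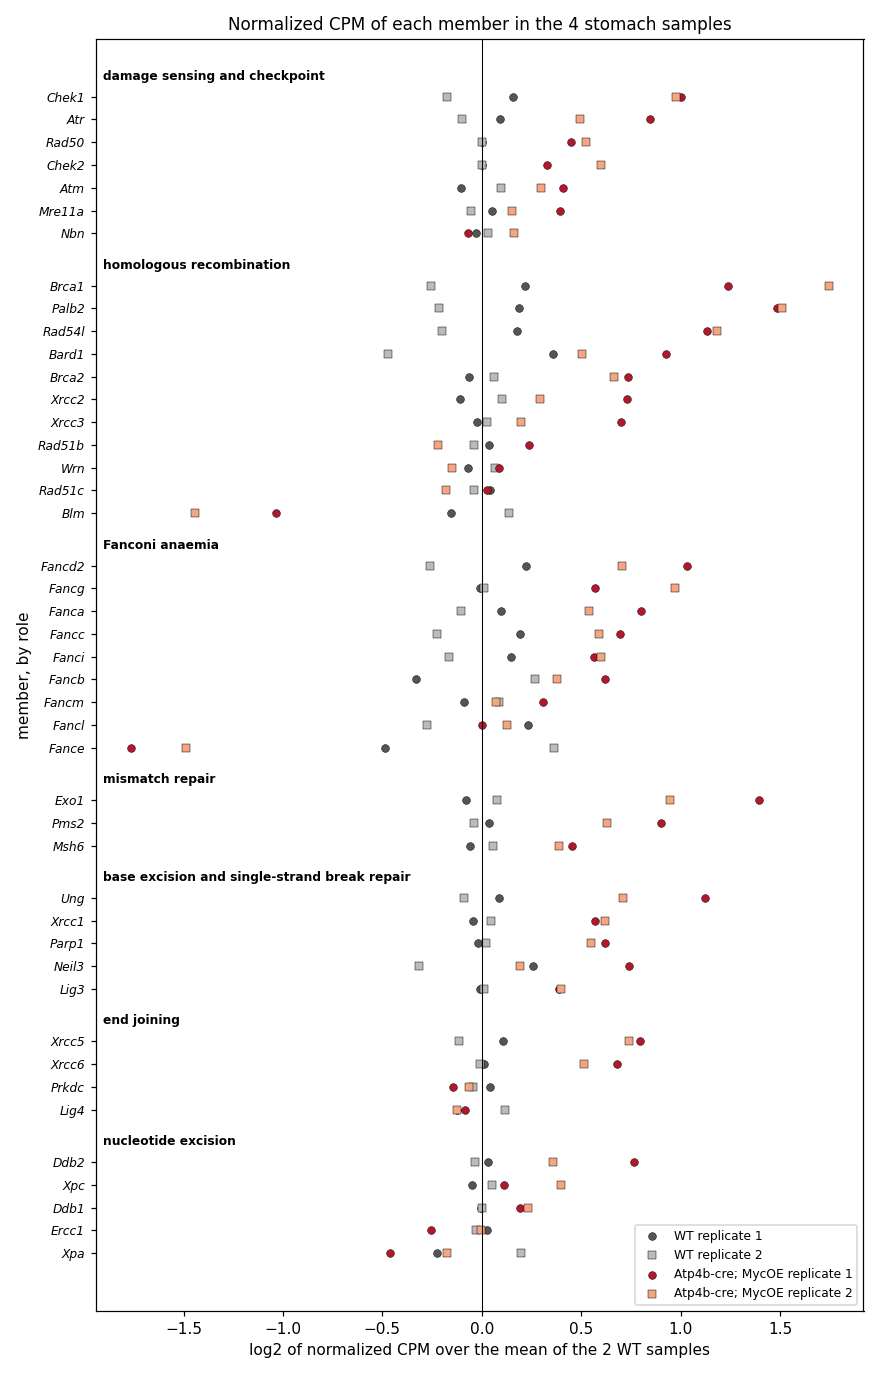
Level of each of the 44 genes in each sample, as log2 of normalised CPM over the mean of the 2 WT samples, on the x axis, with genes grouped by role on the y axis; grey symbols are the 2 WT samples and red and orange symbols the 2 *Atp4b-cre; MycOE* samples. In 31 genes both coloured symbols lie to the right of both grey ones, and in *Blm*, *Fance* and *Prkdc* to the left.

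Promoter sequence was read for the 44 genes, because c-MYC, E2F factors and the CCAAT-binding factor NF-Y each bind a known short word. RefSeq promoters of GRCm38.p6, from 250 bases before to 50 after the start of a gene, were found for 35 of the 44 genes and for 6 of the 7 that rose, *Exo1* having no entry. Both strands were searched for the E-box CACGTG, for CCAAT, and for the E2F words TTTCCCGC, TTTCGCGC, TTTGCCGC and TTTGGCGC, none of which contains another. A gene with several RefSeq starts counted as a match if any of them held the word. CCAAT was in 6 of the 6 genes that rose in edgeR, in 14 of 29 other members (48.3%), in 57.1% of the 35 members and in 41.1% of the promoters of 27025 genes. Of 13 members with a promoter entry that DESeq2 called higher, 8 held it (61.5%). It was also in 53.4% of the other repair genes described below and in 84.6% of the proliferation markers with a promoter entry. In *Blm*, which fell, it was found on both strands. An E2F word was in 7 of the 35 (20%) against 9.09% of the other repair genes and 2.6% of all promoters, and these were *Chek2*, *Brca2*, *Bard1*, *Rad51c*, *Fancg*, *Msh6* and *Xrcc6*. Of these 7 edgeR called *Xrcc6* higher, beside 7 of the 44 members and 5.65% of all genes. DESeq2 called *Xrcc6*, *Brca2* and *Fancg* higher, beside 15 of the 44 and 5.62% of genes with any count. The E-box was in 3 of the 35 (8.57%), *Parp1*, *Lig3* and *Xrcc5*, against 17% of the other repair genes and 8.09% of all promoters. A match describes these letters only.

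The promoters of *Brca1* (chr11:101551906-101552205, minus strand), *Rad54l* (chr4:116123641-116123940, minus strand), *Xrcc5* (chr1:72307171-72307470, plus strand), *Xrcc6* (chr15:82016119-82016418, plus strand) and *Blm* (chr7:80534949-80535248, minus strand) are shown 5′ to 3′, with the found words in capitals. They are 2 recombination genes that rose, the Ku pair that rose with an E-box in one and an E2F word in the other, and the gene that fell.
Brca1: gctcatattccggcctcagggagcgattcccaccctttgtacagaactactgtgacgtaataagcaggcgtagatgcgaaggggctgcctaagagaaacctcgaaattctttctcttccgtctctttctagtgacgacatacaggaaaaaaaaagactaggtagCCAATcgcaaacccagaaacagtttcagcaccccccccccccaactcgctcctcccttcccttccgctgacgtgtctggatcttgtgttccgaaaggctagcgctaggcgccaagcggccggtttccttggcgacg
Rad54l: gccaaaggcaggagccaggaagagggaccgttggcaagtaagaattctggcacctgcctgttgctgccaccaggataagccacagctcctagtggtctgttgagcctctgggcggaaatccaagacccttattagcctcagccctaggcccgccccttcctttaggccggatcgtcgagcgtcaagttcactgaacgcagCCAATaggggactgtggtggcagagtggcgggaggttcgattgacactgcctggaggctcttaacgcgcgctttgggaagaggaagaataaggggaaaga
Xrcc5: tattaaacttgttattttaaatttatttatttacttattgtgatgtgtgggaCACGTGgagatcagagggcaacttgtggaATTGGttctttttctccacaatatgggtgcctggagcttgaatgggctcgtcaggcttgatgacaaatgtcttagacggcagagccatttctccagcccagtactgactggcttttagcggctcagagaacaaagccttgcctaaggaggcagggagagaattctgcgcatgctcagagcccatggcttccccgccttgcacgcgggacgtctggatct
Xrcc6: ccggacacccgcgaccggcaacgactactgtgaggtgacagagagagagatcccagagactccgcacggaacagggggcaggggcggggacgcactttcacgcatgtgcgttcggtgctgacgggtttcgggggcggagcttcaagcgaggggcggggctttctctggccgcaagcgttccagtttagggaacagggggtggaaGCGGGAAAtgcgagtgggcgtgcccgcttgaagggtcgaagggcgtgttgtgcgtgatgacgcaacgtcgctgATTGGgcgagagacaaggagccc
Blm: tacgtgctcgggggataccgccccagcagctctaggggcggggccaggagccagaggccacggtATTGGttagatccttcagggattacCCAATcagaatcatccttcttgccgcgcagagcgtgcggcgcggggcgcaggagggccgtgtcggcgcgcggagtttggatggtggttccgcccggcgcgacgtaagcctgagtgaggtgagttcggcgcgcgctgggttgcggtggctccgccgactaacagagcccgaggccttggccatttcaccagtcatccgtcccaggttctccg
The CCAAT words begin 86 bases before the start in *Brca1* and 50 before it in *Rad54l*, and at 186 and 161 before it in *Blm*. In *Xrcc5* the E-box begins 198 bases before the start, and CCAAT read on the opposite strand 169 before it. In *Xrcc6* the E2F word on the opposite strand begins 46 bases before the start, and CCAAT lies after the start, at position 278 of the 300 bases. Starts are those of RefSeq. GENCODE M21 begins *Xrcc6* far upstream, at position 81987835, and *Blm*, which is on the minus strand, at 80535119. It begins *Xrcc1*, whose promoter is not printed, at 24546289. The whole *Xrcc1* window (chr7:24546449-24546748, plus strand), with its CCAAT, thus lies inside the GENCODE gene.

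Homologous recombination, which copies the sister chromatid to mend a double-strand break, had 3 of 11 genes higher (5.65% of all genes) and 1 lower (5.08%) in edgeR, and a median log2 fold change of 0.53. *Brca1* (chromosome 11, 101488764 to 101551955 in GRCm38) encodes the scaffold that starts resection and brings in PALB2. It had 376 and 225 counts in WT against 772 and 1442 in the transgenic samples. Its normalised CPM rose from 9.63 ± 2.22 (SD, n = 2) to 27.5 ± 6.73, a log2 fold change of 1.51 (SE 0.27, adjusted p = 0.0395 in edgeR). The genotypes did not overlap, although transgenic replicate 2 stood well above replicate 1. *Palb2*, the bridge between BRCA1 and BRCA2, had 84 and 53 counts in WT against 209 and 280 in the transgenic samples. It rose by a log2 fold change of 1.49 (SE 0.27, adjusted p = 0.0417), and the transgenic samples were almost alike at 6.16 and 6.27 normalised CPM.

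*Rad54l*, a motor protein that promotes strand invasion, had 241 and 154 counts in WT against 473 and 644 in the transgenic samples. Its log2 fold change was 1.16 (SE 0.20, adjusted p = 0.0394), again without overlap. Of the *Rad54l* exon sequence 15.4% overlaps *Lrrc41* on the opposite strand, and whether counting used strand is not given in the sources used here. *Blm* (chromosome 7, 80454733 to 80535119), the helicase that dissolves joint molecules and limits crossovers, had 653 and 664 counts in WT against 358 and 355 in the transgenic samples. It fell from 21.6 ± 3.07 to 9.25 ± 1.84 normalised CPM, a log2 fold change of -1.23 (SE 0.22, adjusted p = 0.0394). *Blm* was the one recombination gene whose transgenic samples both lay under WT.

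None of the other 7 recombination genes was called by edgeR (5.65% of all genes higher). DESeq2 called 1 of the 7, *Brca2*, higher (5.62% of genes with any count). *Brca2*, a mediator that acts after resection, had a log2 fold change of 0.70 (adjusted p = 0.0654), and *Bard1*, the partner of BRCA1, 0.73 (adjusted p = 0.255). *Brca2* went from 240 and 217 counts to 422 and 528, without overlap. Of the genes that assist strand exchange, *Xrcc2* had 0.53 and *Xrcc3* 0.47, whereas *Rad51b* had 0.02 and *Rad51c* -0.08. *Rad51c* had 11 to 16 counts in the 4 samples, at which a modest difference was not detectable. *Wrn*, the Werner helicase, stood at -0.03 with overlapping genotypes, so the related helicases *Blm* and *Wrn* had unlike values, a difference between genes that was not tested.

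Checkpoint and sensing genes all had positive values, with 0 of 7 called by edgeR (5.65% of all genes higher). At an unadjusted p under 0.05, 5 were higher (17.7% of all genes). DESeq2 called 2 higher (5.62% of all genes), *Atr* and *Chek1*. The median log2 fold change of the 7 was 0.47. *Chek1*, the kinase that ATR switches on at stalled forks, had the largest value of the class. It had 183 and 121 counts in WT against 332 and 431 in the transgenic samples, a log2 fold change of 0.99 (SE 0.22, adjusted p = 0.0557). The transgenic samples, at 9.79 and 9.65 normalised CPM, lay above both WT samples. *Atr* itself had 0.68 (adjusted p = 0.0694), and *Atm* and its target *Chek2* had 0.36 (adjusted p = 0.0946) and 0.47 (adjusted p = 0.135).

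The MRN complex, which holds broken ends and calls in ATM, has 3 genes among the members, and differences between them were not tested. *Rad50* had 933 and 777 counts in WT against 1286 and 1786 in the transgenic samples. Its log2 fold change of 0.49 (SE 0.095, adjusted p = 0.0471) passed the adjusted p but not the fold threshold. *Mre11a*, the nuclease, had 0.28 (adjusted p = 0.239), and *Nbn*, the subunit that binds ATM, 0.05 (adjusted p = 0.824) with overlapping genotypes.

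The Fanconi anaemia genes, which unhook crosslinked strands, also gave 0 calls of 9 by edgeR (5.65% of all genes higher). At an unadjusted p under 0.05, 4 were higher and 1 lower (17.7% and 16.4% of all genes). DESeq2 called 3 higher (5.62% of all genes), *Fanca*, *Fancg* and *Fancd2*. The median log2 fold change was 0.58. Of the core complex, which ubiquitinates FANCD2, *Fancg* had 0.79 (adjusted p = 0.0876), *Fanca* 0.67 (adjusted p = 0.0850), *Fancc* 0.64 (adjusted p = 0.125) and *Fancb* 0.51 (adjusted p = 0.321). The ligase subunit *Fancl* had 0.07 and the translocase *Fancm* 0.19, both with overlapping genotypes. The clamp that the core complex modifies, *Fancd2* and *Fanci*, had 0.88 (adjusted p = 0.109) and 0.58 (adjusted p = 0.177). Exons of *Fancc*, *Fanci*, *Fancl* and *Fanca* overlap genes of the opposite strand over 18.6%, 16%, 13.7% and 10.5% of their length.

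*Fance*, which joins the core complex to FANCD2, went the other way. It had 24 and 36 counts in WT against 10 and 16 in the transgenic samples, a log2 fold change of -1.60 (SE 0.52, adjusted p = 0.115). The genotypes did not overlap, but the SE was the largest of the 44 genes and the fall was not called.

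Mismatch repair genes, which correct copying errors, all 3 lay higher without overlap (33.3% of all genes). Of them edgeR called 1 (5.65% of all genes) and DESeq2 called 2 (5.62%), *Exo1* and *Pms2*. *Exo1*, the exonuclease that removes the mismatched strand, had 161 and 149 counts in WT against 452 and 436 in the transgenic samples. It rose from 5.07 ± 0.38 to 11.5 ± 2.52 normalised CPM, a log2 fold change of 1.19 (SE 0.24, adjusted p = 0.0490). *Pms2*, an endonuclease of the pathway, had 0.77 (adjusted p = 0.0716), and *Msh6*, which recognises the mismatch, 0.42 (adjusted p = 0.0549).

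Base excision and single-strand break repair had 1 of 5 genes called by edgeR (5.65% of all genes) and 3 past the adjusted p (6.98%), all upward, with a median log2 fold change of 0.58. DESeq2 called 2 of the 5 higher, *Xrcc1* and *Ung*. *Parp1*, the sensor that marks nicks with poly(ADP-ribose), was the most abundant of them. It had 2033 and 1737 counts in WT against 3197 and 4014 in the transgenic samples, a log2 fold change of 0.58 (SE 0.076, adjusted p = 0.0264), just under the fold threshold. *Xrcc1*, the scaffold that PARP1 recruits, had 705 and 624 counts in WT against 1090 and 1490 in the transgenic samples. Its log2 fold change of 0.59 (SE 0.11, adjusted p = 0.0408) lay just above that threshold.

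*Lig3*, the ligase bound to XRCC1, had 1784 and 1502 counts in WT against 2376 and 3155 in the transgenic samples, a log2 fold change of 0.39 (SE 0.071, adjusted p = 0.0407). The XRCC1 scaffold and both of its partners in nick repair thus lay higher without overlap, although 25.1% of *Lig3* exon sequence is shared with *Rffl* on the opposite strand. *Ung*, the glycosylase that removes uracil from DNA, went from 370 and 272 counts to 766 and 759, a log2 fold change of 0.93 that missed the threshold in edgeR (adjusted p = 0.0551) and passed it in DESeq2 (adjusted p = 0.00271). *Neil3*, a glycosylase of oxidised bases, had 0.49 with overlapping genotypes.

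End joining, which reseals a break without a template, had 2 of 4 genes called higher by both edgeR (5.65% of all genes) and DESeq2 (5.62%). Both genes of the Ku ring that grips a DNA end rose. *Xrcc5* (Ku80) had 1006 and 719 counts in WT against 1641 and 2081 in the transgenic samples, a log2 fold change of 0.77 (SE 0.12, adjusted p = 0.0316). *Xrcc6* (Ku70) had 874 and 717 counts in WT against 1408 and 1650 in the transgenic samples, a log2 fold change of 0.60 (SE 0.11, adjusted p = 0.0416). Neither overlapped between genotypes, and 7.69% of *Xrcc6* exon sequence is shared with *Desi1* on the opposite strand. *Prkdc*, the kinase that binds Ku, and *Lig4*, the ligase of the pathway, had log2 fold changes of -0.10 each (adjusted p = 0.504 and 0.676), and their difference from the Ku pair was not tested. *Prkdc* had 1308 and 1026 counts in WT against 1162 and 1620 in the transgenic samples.

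Nucleotide excision, which cuts out bulky adducts, showed no call in its 5 genes by edgeR (5.65% of all genes higher, 5.08% lower). DESeq2 called 0 of them (5.62% and 6.48% of genes with any count). At an unadjusted p under 0.05 in edgeR there were also 0 (17.7% and 16.4% of all genes). With 5 genes, 0 calls say little about the class. The lowest adjusted p was 0.149 and the median log2 fold change 0.21. *Ddb2*, a damage sensor that is also induced by p53, had the largest value. It had 206 and 164 counts in WT against 347 and 344 in the transgenic samples, a log2 fold change of 0.58 (SE 0.23, adjusted p = 0.165), with 23.8% of its exon sequence shared with *Acp2*. Its partner *Ddb1* had 0.21, the sensor *Xpc* 0.26, the scaffold *Xpa* -0.31 and the nuclease subunit *Ercc1* -0.12.

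**Figure D3:**
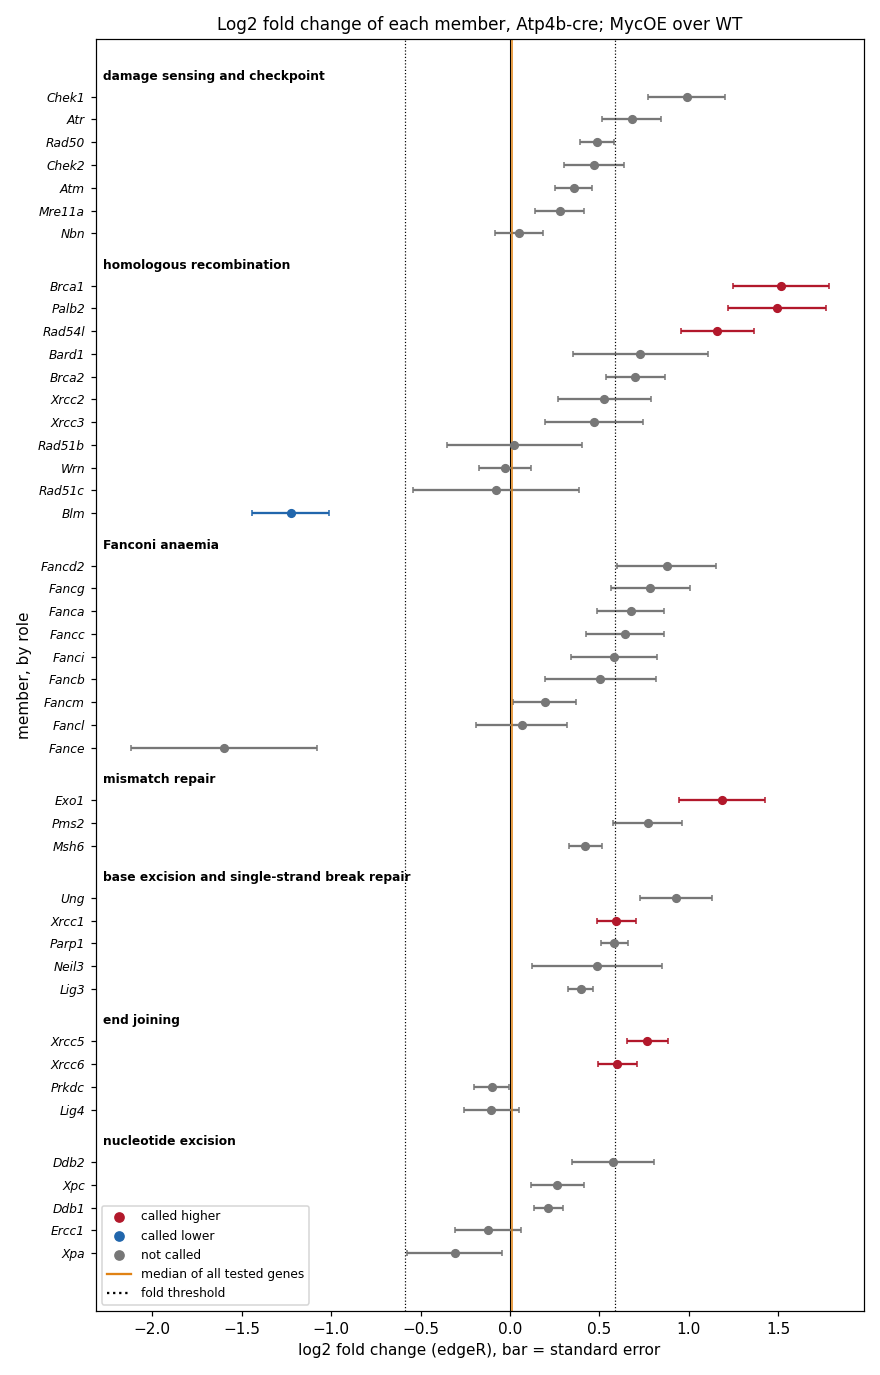
Log2 fold change of each of the 44 genes, *Atp4b-cre; MycOE* over WT, on the x axis with its standard error as a bar, from edgeR on 2 samples per genotype; genes are grouped by role, red marks the 7 called higher, blue the 1 called lower, dotted lines the fold threshold of 0.585 and the orange line the median of all genes, 0.01. Most genes lie right of that line, with *Brca1* and *Palb2* at the upper end and *Blm* and *Fance* at the lower.

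Per kilobase of exon, using GENCODE M21 lengths, the level of the 44 genes in WT ran from 0.0925 normalised CPM per kb for *Rad51c* to 62.0 for *Ddb1*. The length is the union of all annotated exons, 7342 bases for *Palb2*, whether or not the stomach uses them, so the order depends in part on the annotation. *Ddb1*, which also serves as the adaptor of CUL4 ubiquitin ligases, stood far above *Parp1* at 11.6 and *Xrcc5* at 10.9. The last pair lay close together, and in the transgenic samples their order was turned, with *Xrcc5* at 18.6 and *Parp1* at 17.4. *Blm* went from rank 19 in WT to rank 37, at 2.46 and 1.05 per kb, and *Brca1* from rank 26 to rank 16, at 1.13 and 3.23 per kb. The recombination mediators *Palb2* and *Brca2* stayed among the lowest levels at ranks 40 and 39, with 0.847 and 0.889 per kb in the transgenic samples.

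A further 110 repair and checkpoint genes, of which 108 were tested, were examined beside the 44. Of these, 9 (8.33%) rose, against the 5.65% of all genes given above, and 1 (0.926%) fell, against 5.08%. The median log2 fold change of the 108 was 0.34, and 79 (73.1%) lay above WT without overlap, against 33.3% of all genes. Those that rose were the checkpoint genes *Topbp1* (0.64), *Rad1* (0.92), *Cdc25b* (0.81) and *H2afx* (1.06), the recombination gene *Rad51ap1* (1.24), the base excision genes *Tdg* (0.61), *Apex1* (1.17) and *Fen1* (0.84), and the TFIIH helicase *Ercc2* (0.63), as log2 fold changes. Much of the exon sequence of 3 of these is shared with other genes, 84.2% in *Fen1* (*Gm10143* and *Tmem258*), 61.7% in *Apex1* (*Pip4p1*) and 42.7% in *Ercc2* (*Gm26852* and *Klc3*), mostly on the opposite strand, so their counts may hold reads of those genes. In *H2afx* it is 10.2%. The gene that fell was *Wee1*, the kinase that restrains CDK1, at -0.68 (adjusted p = 0.0255). No gene was called by edgeR among 8 further Fanconi genes, 5 of end joining and 9 of translesion synthesis and direct reversal. At an unadjusted p under 0.05 (17.7% of all genes higher), 6, 1 and 2 of them were higher, and DESeq2 (5.62% and 6.48% of all genes) called 2, 0 and 2 higher and 1 of the last list lower. Their median log2 fold changes were 0.61, 0.34 and 0.15.

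*Apex1*, which cuts the site that *Ung* leaves, went to 2.25-fold with an adjusted p of 0.0229. Among 19 genes that p53 induces after damage, 3 rose (5.65% of all genes), the apoptosis genes *Bax* (1.22) and *Bbc3* (1.12) and the antiproliferative gene *Btg2* (0.59). The median of these 19 was 0.14, 7 (36.8%) lay above WT without overlap, near the 33.3% of all genes, and 3 lay below, against 31.5% of all genes. The p53 targets *Cdkn1a*, an inhibitor of cell cycle kinases, and *Mdm2*, which degrades p53, had log2 fold changes of 0.02 and 0.04. The largest of the list was 1.79 in *Eda2r*, a receptor of the TNF receptor family, with 70 and 37 counts in WT against 170 and 304 in the transgenic samples and an adjusted p of 0.0503. The genes named from this list were chosen after their values were seen.

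**Figure D4:**
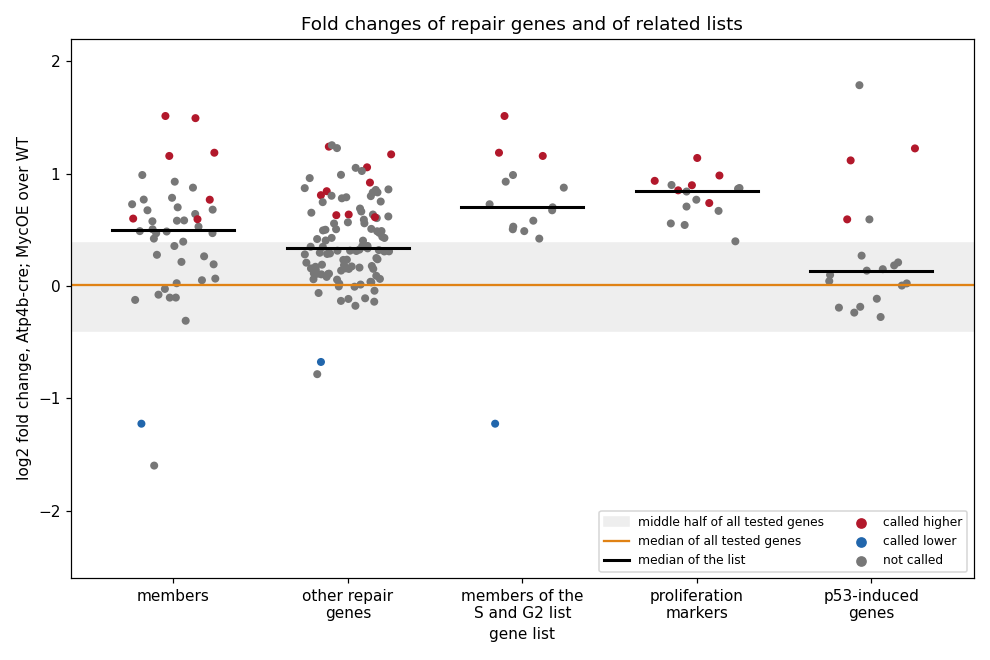
Log2 fold change, *Atp4b-cre; MycOE* over WT, of each tested gene on the y axis for 5 gene lists on the x axis; black bars are list medians, the orange line is the median of all 17643 genes and the grey band their interquartile range, with genes called higher in red and lower in blue. Medians are 0.50 for the 44 genes, 0.34 for the other repair genes, 0.70 for the 15 S and G2 phase members, 0.85 for the proliferation markers and 0.14 for the p53-induced genes.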

How the data were processed

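Gastric RNA from 2 samples of WT and 2 of *Atp4b-cre; MycOE* mice was analysed, with genotype and replicate number taken from the sample labels. The authors deposited 1 table of raw counts per gene symbol, without normalization, and its columns match the sample titles. The submitters' processing notes name HISAT2 and mm10; the counting tool, annotation and use of strand are not given in the sources used here. The names were sorted by character code, both transgenic columns were laid on this order from top to bottom, and WT counts stayed where they were.

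The 44 genes and all gene lists were chosen with earlier results of these data known. The main test was the quasi-likelihood F test of edgeR 4.0.16 under R 4.3.3 with TMM scaling, filterByExpr, genotype as the only term and Benjamini-Hochberg adjustment, in place of the DESeq2 that the authors name; DESeq2 1.42.0 was an alternative. The SE is the log2 fold change over the square root of F. The common dispersion had a square root of 0.295, and a count of 0 allows up to 3 counts, for counting error only. Full values are given for genes that were called, that passed the adjusted p alone, or that had the largest change in a role class without a call; of the other repair genes all called ones are named. The values of some repair genes are not reported here, and these genes were left out of the lists and their counts. Gene positions, lengths and exon overlaps are from GENCODE M21 (GRCm38), promoters from RefSeq GRCm38.p6. The fits were tested on simulated data. Alternatives were another tool, 2 other scalings, 2 other count filters, 2 other fold thresholds, a replicate block, leaving out each sample, and the deposited row order.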

Additional observations from a re-analysis of the deposited data

How the results depend on the processing

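The row order decided the direction. In the deposited order, edgeR called 13 of the 44 genes higher and 21 lower with a median log2 fold change of -0.39, and 36 and 54 of the other repair genes with a median of -0.67, against 42.7% and 41.5% of all genes. There the fitted log2 fold changes turned for *Rad54l* (-10.76), *Blm* (1.81), *Xrcc1* (-3.39), *Xrcc5* (-6.10), *Xrcc6* (-1.67), *Topbp1* (-2.54), *Rad1* (-11.02), *H2afx* (-5.46), *Rad51ap1* (-9.78), *Tdg* (-1.33), *Fen1* (-1.57), *Rad50* (-12.89), *Parp1* (-8.53), *Lig3* (-13.83), *Chek1* (-1.46), *Fance* (1.73) and *Ddb2* (-0.84); where transgenic counts are 0 the size depends on the prior count. In the re-sorted table, the 18 called member and other repair genes and 6 further members given in full, together 24, kept their sign in all 240 combinations with 10 alternatives, and lost a call in 73 and gained one in 9.

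DESeq2 called 15 of the 44 higher, and 21 of the other repair genes higher and 2 lower, against 5.62% and 6.48% of genes with any count. Library sizes without scaling moved the median of all genes to 0.23, with 12.9% higher and 4.19% lower calls; the 44 then had 18 higher calls and a median of 0.72, with *Rad51c*, *Wrn*, *Prkdc*, *Lig4* and *Ercc1* turning positive, and the other repair genes 28 higher, 0 lower and a median of 0.56. Without a filter on low counts 11 of the 44 were higher (4.96% of all genes). Above a log2 fold change of 1, 4 of the 44 and 3 other repair genes were higher and 0 other repair genes lower (2.63% and 3.68% of all genes). With the size factors of DESeq2 in edgeR 5 of the 44 were higher (5.32% of all genes), and *Exo1* and *Xrcc1* were no longer called.

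Leaving out 1 sample gave 0 to 7 higher and 0 to 1 lower calls among the 44, with a median of 0.40 to 0.57, and 0 to 9 higher and 0 to 1 lower among the other repair genes, with a median of 0.32 to 0.39. The lone sample of a genotype was assumed to vary like the other pair. Without WT replicate 1, or without WT replicate 2, no gene of the table was called. With the replicate number as a block, edgeR called 0 higher and 0 lower in both lists and 0.153% and 0.493% of all genes, with a lowest adjusted p of 0.0695 among the 44, of which 21 were higher and 1 lower at an unadjusted p under 0.05 (14.7% of all genes higher); the median was 0.51. The labels give no link between replicates of the same number, and their deviations correlated at 0.067, but 2 pairs cannot settle whether they are paired. The cause of these losses was not tested. With 2 samples per genotype and 11 to 16 counts, *Rad51c* allows no statement on modest changes.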

Other observations

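Markers of other cells that whole stomach can hold were summed beside the repair genes, as normalised CPM. Mucous neck cell markers (4 genes, 0 called by edgeR or DESeq2) summed to 10129 and 12584 in WT and to 20307 and 8950 in the transgenic samples. Squamous markers of the forestomach (8 genes, 0 called by either tool) summed to 2441 and 1386 in WT and to 818 and 4185 in the transgenic samples, so the transgenic replicates differed from each other by more than the genotypes. Smooth muscle markers (7 genes, 0 called by either tool) summed to 7886 and 5011 in WT and to 2591 and 5459 in the transgenic samples. At an unadjusted p under 0.05 in edgeR, 0 genes of these 3 lists were higher and 0 lower, against 17.7% and 16.4% of all genes.

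Of immune cells, 9 B and plasma cell markers summed to 495 and 497 in WT and to 574 and 355 in the transgenic samples. Of the 7 that edgeR tested, 4 lay below WT without overlap (31.5% of all genes), 2 were lower at an unadjusted p under 0.05 (16.4%), 0 were called by edgeR or DESeq2, and the median log2 fold change was -0.33. The 9 T cell markers summed to 7.24 and 8.14 in WT and to 9.29 and 4.50 in the transgenic samples, with *Trac* at 0 in all samples, and edgeR and DESeq2 called 0 of them, with 0 at an unadjusted p under 0.05. The 10 myeloid markers summed to 254 and 262 in WT and to 123 and 117 in the transgenic samples, with *Aif1* at 0 counts throughout. Of the 9 tested, edgeR called 4 lower (5.08% of all genes) and 1 higher (5.65%), the receptor gene *Cd14*. DESeq2 called 5 lower (6.48% of genes with any count) and 1 higher (5.62%).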
